A study of Mus musculus with 12 samples.

Results

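In CD8 T cells grown with vehicle, 135 of 1180 mouse microRNA genes lay under a called peak of H3K79me2, a histone H3 modification written by the enzyme DOT1L. A gene was a member when its biotype was miRNA, its symbol began with Mir and its interval shared at least 1 base with a DMSO peak, so the DMSO peaks chose the genes and their DMSO values are given as a description. This was 11.4% of the microRNA genes (95% interval 9.68 to 13.4), beside 18.3% of all 49997 RefSeq genes, 14.3% of snoRNA genes and 34.5% of protein-coding genes. The question followed here is which of these genes also had a peak after treatment with a DOT1L inhibitor, and where those peaks lay relative to the microRNA, its host gene and its cluster.

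The 12 libraries were 6 H3K79me2 immunoprecipitates and 6 inputs, with 2 biological replicates for each of EPZ-5676 (EPZ), SGC-0946 (SGC) and 0.1% DMSO. EPZ and SGC are inhibitors of DOT1L, and DMSO is the solvent control. All cells came from male mice of the strain labelled CreERT2;DOT1L-flox;OT-I with genotype wt;wt;het, which reads as wild type at the Cre and floxed loci and heterozygous for the transgenic T cell receptor OT-I, in every group, vehicle included. After activation through CD3 and CD28 on day 0 the cells were expanded for 8 days and treated every 2 days; both compounds are labelled 10 mM, a unit that could not be checked here. No animal age is given in the labels.

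The values are 3 lists of broad peaks, 1 per treatment, holding 4443 EPZ, 55 SGC and 12578 DMSO peaks. The lists name no replicates and were treated as pooled, so the spread between replicates is not measured in any value below and no test was possible. The read depth is unknown, and a gene without a peak is a gene where none was called. Fewer cells carrying the mark and less of the mark per cell cannot be told apart. Fold enrichment is the authors' ratio of a peak over background and is read only within its own list. The 7 T cell genes Cd3e, Cd3d, Cd3g, Cd8a, Cd8b1, Ptprc and Lck each had EPZ and DMSO peaks. Of 38 microRNA genes typical of other cell types, 0 had an EPZ or DMSO peak, and 7 lay within 10 kb of a DMSO peak.

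MicroRNAs are cut from longer transcripts, first in the nucleus by Drosha with its partner Dgcr8 and then in the cytoplasm by Dicer, and the mature strand guides Argonaute to messenger RNAs that pair with its seed. Many microRNA genes lie inside introns of protein-coding or noncoding host genes and are transcribed with them, often several in a row. H3K79me2 is found over transcribed genes, chiefly in their first part, and in T cells microRNAs of the miR-17~92, let-7, miR-15/16, miR-142, miR-150 and miR-155 groups are known regulators of proliferation, survival and effector function. The lists hold peaks of the mark, not microRNA levels, and a peak has no strand, so the mark cannot be assigned to the microRNA rather than to its host.

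The mature sequences of the members that the results turn on are shown by shared seed, because one seed family can come from loci that differ in their EPZ peaks. A mature sequence was matched for 129 of the 135 genes. They are RefSeq sequences on GRCm38.p6, written 5′ to 3′, with the seed (bases 2 to 8) in capitals. The miR-17, miR-18, miR-19 and miR-92 families come from the clusters on chromosomes 14 and X, where Mir17 alone had an EPZ peak.
miR-17-5p: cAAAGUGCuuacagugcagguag
miR-20a-5p: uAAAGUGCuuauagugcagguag
miR-106a-5p: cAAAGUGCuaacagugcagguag
miR-20b-5p: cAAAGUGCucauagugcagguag
miR-18a-5p: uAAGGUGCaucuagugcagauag
miR-18b-5p: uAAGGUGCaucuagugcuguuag
miR-19a-3p: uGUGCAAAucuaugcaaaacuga
miR-19b-3p: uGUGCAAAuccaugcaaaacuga
miR-92a-3p: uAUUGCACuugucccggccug

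The let-7 and miR-15/16 families each come from members with and without an EPZ peak. Mirlet7g, Mir15b and Mir16-2 had one, and the other members of these families did not.
let-7g-5p: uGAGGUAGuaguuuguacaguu
let-7i-5p: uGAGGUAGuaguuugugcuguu
let-7a-5p: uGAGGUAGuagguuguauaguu
let-7f-5p: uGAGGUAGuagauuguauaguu
let-7d-5p: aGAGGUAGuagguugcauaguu
miR-15b-5p: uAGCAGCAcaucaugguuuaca
miR-15a-5p: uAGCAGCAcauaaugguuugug
miR-16-5p: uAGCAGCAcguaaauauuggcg

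Mir21a, Mir142 and Mir301 had EPZ peaks, and Mir130b, Mir342 and the miR-23a cluster did not. Mir301 and Mir130b are shown because their mature strands share the seed AGUGCAA.
miR-21a-5p: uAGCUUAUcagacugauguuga
miR-142a-5p: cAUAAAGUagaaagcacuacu
miR-142a-3p: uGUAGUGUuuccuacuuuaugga
miR-301a-3p: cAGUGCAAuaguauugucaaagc
miR-130b-3p: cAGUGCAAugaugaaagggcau
miR-342-3p: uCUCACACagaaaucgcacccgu
miR-23a-3p: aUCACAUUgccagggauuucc
miR-27a-3p: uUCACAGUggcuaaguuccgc
miR-24-3p: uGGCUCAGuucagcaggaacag

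Most members lay under DMSO peaks of high fold and width within their list. The 135 genes fell under 112 peaks, of which 98 held 1 member and 14 held several. The DMSO fold enrichment over a member had a median of 6.24 (quartiles 4.37 and 8.2) and ran from 2.79 to 11.6, beside a median of 3.36 over all DMSO peaks. The peak over a member was a median of 6.84 kb wide, beside 2.42 kb for all DMSO peaks. A member was a median of 1.22 kb from the nearer edge of its peak (quartiles 0.363 and 2.22), and 62 of the 135 were under 1 kb from it. By fold, 65 members lay in the highest 10% of the DMSO list and 119 above its median. Wider peaks hold more genes by construction, and these figures only describe the genes that the rule chose.

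The edge of the rule fell between genes with few bases under a peak and genes just beside one. Whole cover was found for 130 members. The partly covered ones were Mir6959 with 9 of 75 bases, Mir3572 with 12 of 86, Mir8114 with 22 of 111, Mir3101 with 72 of 88 and Mir92-2 with 86 of 91. Just outside, Mir5122 was 18 bases from a DMSO peak, Mir7038 was 45, Mir6927 was 56, Mir6359 was 69 and Mir363, the last gene of the cluster on chromosome X, was 76. 3 pairs of members share bases on opposite strands, namely Mir142 with Mir142b, Mir24-2 with Mir3074-2 and Mir219a-1 with Mir219c.

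After EPZ, 37 of the 135 genes had a peak (27.4%, exact 95% interval 20.1 to 35.7), beside 45.0% of the other 9011 DMSO-marked genes. Of all bases under DMSO peaks, 26.4% also lay under an EPZ peak. For the DMSO peak over a member, counted per gene, a median of 39.0% of bases did (quartiles 0.0 and 58.5). Among other DMSO-marked classes, 22.7% of snRNA genes, 35.2% of lncRNA genes, 46.1% of protein-coding genes and 51.0% of snoRNA genes had an EPZ peak. The intervals count genes only, and genes of 1 cluster or under 1 peak are not independent. Of the 37 genes, 32 were covered whole, and no microRNA gene had an EPZ peak without a DMSO peak.

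**Figure D1:**
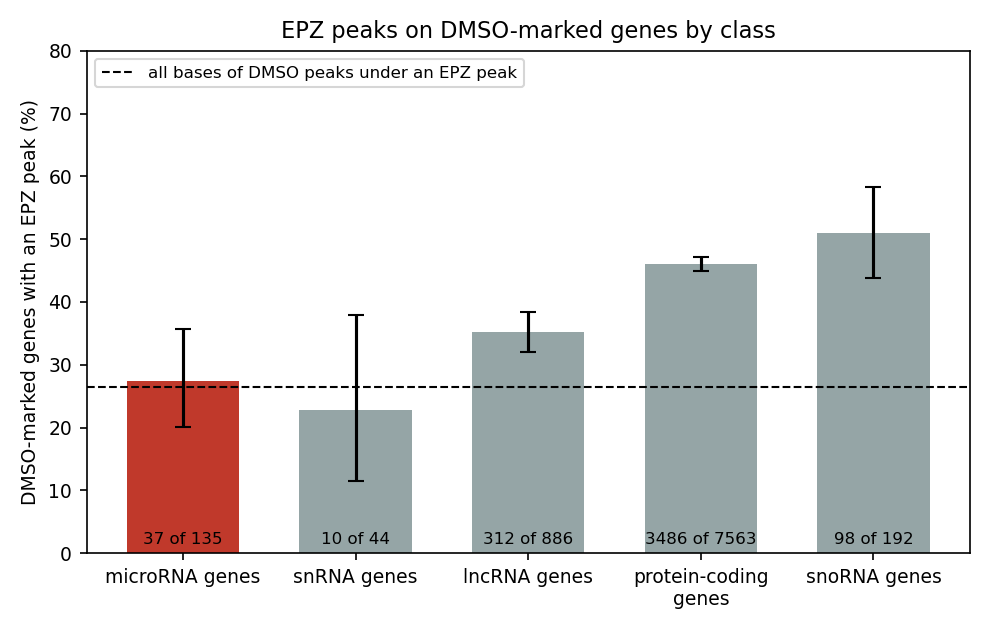
Share of DMSO-marked genes with an EPZ peak (%), by class, with exact 95% intervals and the counts in each bar; the dashed line is the share of all DMSO-peak bases under an EPZ peak. MicroRNA genes stood at 27.4% and protein-coding genes at 46.1%, with the line at 26.4%. The line covers all DMSO peaks. For the DMSO peaks over members, counted per gene, a median of 39.0% of bases lay under EPZ.

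For a further 58 members the EPZ list had a peak elsewhere on the same DMSO peak, and for 40 it had none there. An EPZ peak thus lay on the DMSO peak of 95 of the 135 members. Counting each DMSO peak once where the microRNA strand is known, it was 72 of 107, beside 26.9% of all DMSO peaks. The members' peaks were wider and of higher fold than the list as a whole, and the part of this in the difference was not tested. The nearest EPZ peak to these 58 genes was a median of 1.52 kb away (0.015 to 32.1), and it was within 1 kb for 23 of them. The DMSO fold had a median of 8.2 over the 37 genes with an EPZ peak, 7.17 over the 58 and 3.73 over the 40. The highest value among the 40 was 6.0, at Mir6936 in Sirt7, a gene for a histone deacetylase. In 4 groups of members by DMSO fold, low to high, an EPZ peak lay on 1 of 33, 5 of 34, 13 of 34 and 18 of 34 genes. It lay somewhere on the DMSO peak for 3, 24, 34 and 34 of them. EPZ peaks thus lay mainly on members with high DMSO values. In the highest group, whose DMSO folds began at 8.2, 34 of 34 genes had an EPZ peak on the gene or beside it on the same DMSO peak.

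**Figure D2:**
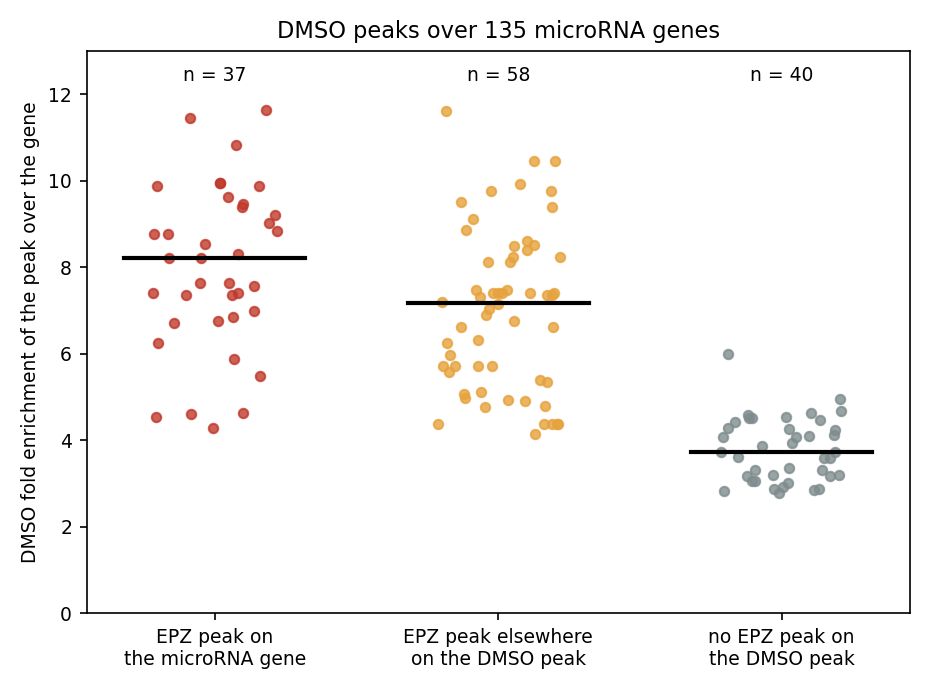
Authors' DMSO fold enrichment of the peak over each of the 135 members, grouped by where an EPZ peak lay; each point is a gene, genes under 1 peak share a value, and bars are medians. The medians are 8.2 with an EPZ peak on the gene, 7.17 with one elsewhere on the DMSO peak and 3.73 with none.

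The SGC list had a peak on 0 of 135 members (exact 95% interval 0.0 to 2.7%), beside 0.61% of the other DMSO-marked genes. The count of 0 is not distinguishable from that share at this number of genes. SGC peaks lay elsewhere on the DMSO peak of 3 members, Mir706 in the kinase gene Wnk1 and the overlapping pair Mir142 and Mir142b, which share a DMSO peak. The share of all DMSO peaks with an SGC peak is not given here, so the count of 3 is only a description. EPZ and SGC have the same labelled dose and time, but no difference between them could be tested from 1 list each.

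The miR-17~92 cluster, a driver of lymphocyte proliferation and survival, was cut by the end of its EPZ peak. Its 6 genes lie within 0.836 kb on chromosome 14, from Mir17 at 115043671 to the end of Mir92-1 at 115044506, under a single DMSO peak of 7.40-fold. The EPZ peak, of 4.44-fold, covered Mir17 whole and ended 0.129 kb from its start. Mir18 began 0.051 kb beyond that end, and Mir92-1 lay 0.627 kb beyond it. In total 58.7% of the DMSO peak was under EPZ. The edges of a broad peak depend on the calling threshold, which is not given in the sources used here, and whether the cluster differs along its length was not tested.

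The paralog clusters had no EPZ peak on a gene. The cluster on chromosome X, Mir106a, Mir18b, Mir20b, Mir19b-2 and Mir92-2, lay under 1 DMSO peak of 4.37-fold, and its EPZ peak ended 1.41 kb upstream of Mir106a. Mir106b, Mir93 and Mir25, inside the replication helicase gene Mcm7, were not members and lay 1.37 to 1.78 kb from a DMSO peak of 8.22-fold. Of the 15 genes of these clusters, 1 had an EPZ peak and 11 a DMSO peak, beside 11.4% of all microRNA genes with a DMSO peak. This list was chosen with earlier results of these data known, and the 11 share 1 DMSO peak per chromosome, so the count is only a description. An SGC peak lay on 0 of these 11. Both miR-19b-3p and miR-92a-3p are encoded by members on chromosomes 14 and X, none of them with an EPZ peak.

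The miR-15/16 family, known as a brake on the cell cycle, came from a pair of loci that differed in the EPZ list. Mir15b and Mir16-2 lie in Smc4, a condensin subunit gene, on chromosome 3 (69009772 to 69009996). Their EPZ peak was of 20.4-fold, the highest over any member, and their DMSO peak was of 7.36-fold. Mir15a and Mir16-1, in the noncoding gene Dleu2 on chromosome 14, had no EPZ peak on them and a DMSO peak of 8.24-fold. The nearest EPZ peak was 4.55 kb from Mir15a and 4.69 kb from Mir16-1, upstream, and covered part of the same DMSO peak (52.3%). The mature miR-16-5p is encoded at both loci.

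The let-7 family, known in mouse to restrain the effector function of CD8 T cells, had 5 members, and 1 had an EPZ peak. Mirlet7g in Wdr82, a gene of a complex that binds the transcribing polymerase, had an EPZ peak of 13.8-fold and a DMSO peak of 9.95-fold. At Mirlet7i, with a DMSO fold of 9.11, the EPZ peak came to 0.017 kb from the gene. Mirlet7a-1 and Mirlet7f-1 shared a DMSO peak of 9.76-fold with an EPZ peak 0.381 and 0.736 kb away, and Mirlet7d lay under a separate DMSO peak of 3.19-fold with no EPZ peak on it. The mature let-7f-5p is also encoded by Mirlet7f-2, which had no DMSO peak. The other 7 genes of the family, among them Mirlet7b and Mirlet7c-1, had no EPZ or DMSO peak and lay at least 34.0 kb from a DMSO peak.

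**Figure D3:**
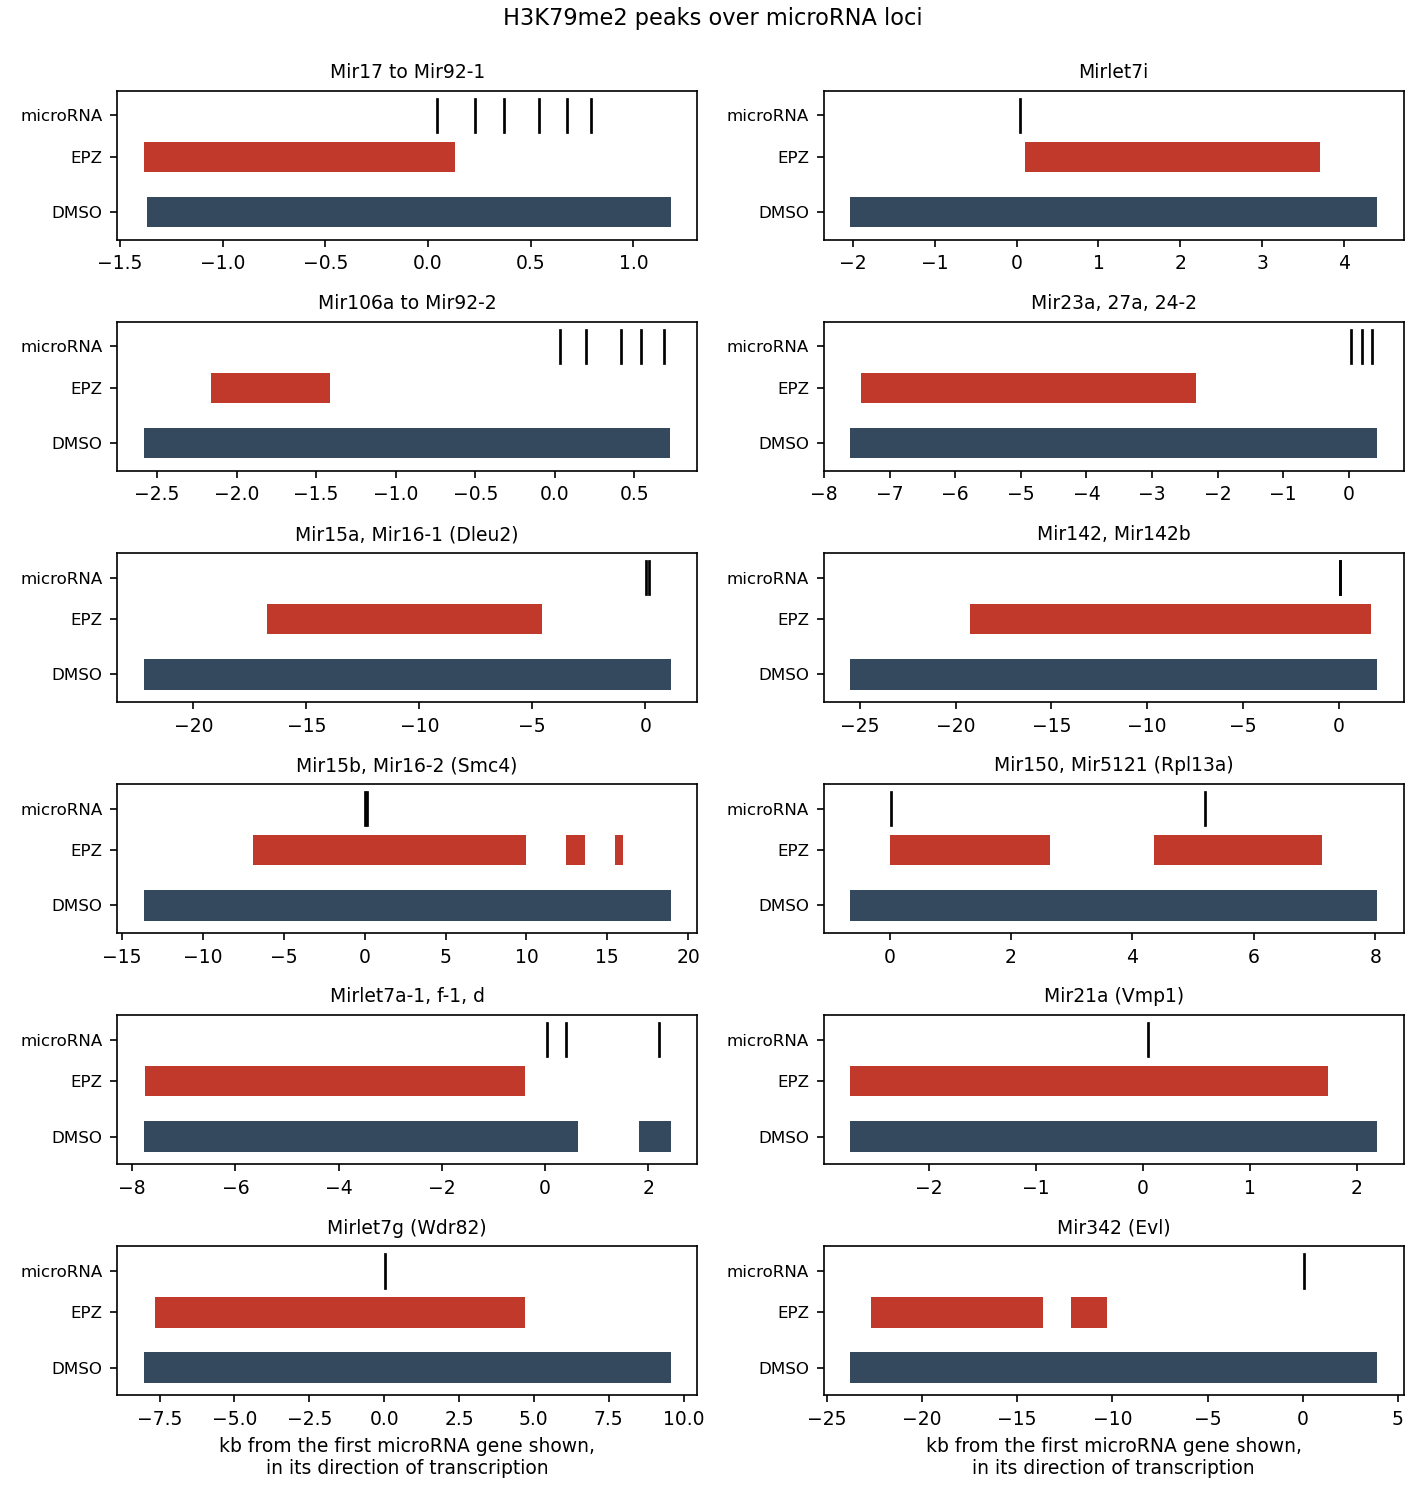
Peaks over 12 microRNA loci, in kb from the first microRNA gene in its direction of transcription; black ticks mark microRNA genes, red bars EPZ peaks and blue bars DMSO peaks. The EPZ peak ends inside the miR-17~92 cluster, covers Mir15b and Mir16-2, Mirlet7g, Mir21a and Mir142, and stops 0.381 kb before Mirlet7a-1 and 4.55 kb before Mir15a.

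Of the 44 microRNA genes on a list of those reported in T lymphocytes, 5 had an EPZ peak and 15 a DMSO peak. The DMSO share was 34.1%, beside 11.4% of all microRNA genes, and an SGC peak lay on 0 of the 15. The list was chosen with earlier results of these data known, and several of the 15 share a DMSO peak. The share is therefore only a description. The 5 with an EPZ peak were Mir21a, Mir142, Mir150, Mir15b and Mir16-2. Mir21a, a microRNA induced in activated lymphocytes, in Vmp1 on chromosome 11, had an EPZ peak of 12.9-fold and a DMSO peak of 10.8-fold, with 90.6% of the DMSO peak under EPZ. Mir142, a blood cell microRNA, had an EPZ peak of 6.66-fold and a DMSO peak of 7.62-fold, which it shared with Mir142b on the opposite strand. Mir150, abundant in resting lymphocytes, had an EPZ peak of 7.97-fold that covered 56 of its 65 bases and a DMSO peak of 9.86-fold. All 5 genes lay under DMSO peaks of at least 7.36-fold.

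Without an EPZ peak on them were Mir342 in Evl, a regulator of actin filaments, with a DMSO fold of 6.76 and the EPZ peak 10.3 kb away, and Mir26b in the phosphatase gene Ctdsp1, with a DMSO fold of 5.34 and the EPZ peak 1.5 kb away. Mir23a, Mir27a and Mir24-2 lie together on chromosome 8 at a DMSO fold of 5.72, and the EPZ peak stood 2.33 to 2.63 kb upstream. For Mir191 and Mir425 in Dalrd3, both at a DMSO fold of 4.08, and for Mir130b at 4.52, the EPZ list had no peak anywhere on the DMSO peak. Mir155, needed for the CD8 T cell response, was not a member: it lay 2.33 kb from a DMSO peak of 3.34-fold. Mir146, Mir146b and the 6 Mir181 genes, regulators of NF-κB and receptor signalling, also had no DMSO peak. In all 29 genes of this list had none, 8 of them within 10 kb of one.

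Most members sat inside host genes. Of the 135, 99 lay wholly in 95 protein-coding genes, 7 only in a noncoding host (Dleu2, Mir17hg, Snhg4, Snhg10, Snhg20 or Gm32082) and 29 in none. The listed interval of Mir17hg, from 115044390 to 115046728, holds Mir92-1 alone. The other genes of that cluster, Mir17 included, therefore count among the 29. An EPZ peak lay on 32 of the 99, 1 of the 7 and 4 of the 29. More of the hosts had one: 70 of 95 coding hosts had an EPZ peak somewhere (73.7%, exact 95% interval 63.6 to 82.2), beside 46.1% of all DMSO-marked protein-coding genes. The peak lay on a member in 31 hosts and elsewhere only in 39. Over these 70 hosts, a median of 49.0% of the DMSO-peak bases in the gene was under EPZ. Hosts are longer than microRNA genes, and each was included because a DMSO peak lay on its microRNA. Over members in coding hosts the DMSO fold had a median of 6.32, beside 3.36 over all DMSO peaks. The part of length and of this choice in these differences was not tested. Of the 83 genes with known orientation, 78 were on the strand of their host and 5 opposite, and an EPZ peak lay on 25 of the 78 and 0 of the 5. The shares of all 1180 microRNA genes inside a host, or on its strand, are not given here. The host and strand counts therefore only describe the members.

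Hosts were grouped by known function after the values had been seen, so the groups are only a description. Lymphocyte signalling and effector genes hosted 14 members, 7 of them with an EPZ peak, and 12 of the 14 hosts had one. The shares were 27.4% over all members and 73.7% over all coding hosts. Mir8119 in Lck, the kinase that starts T cell receptor signalling, had an EPZ peak of 9.45-fold and the highest DMSO fold of all members, 11.6. Mir7058 in Lat, the adaptor of the same pathway, had 9.85 in the EPZ list and 9.46 in the DMSO list. Mir7023 in Pik3cd, a lipid kinase gene, had 3.44 in the EPZ list and 9.63 in the DMSO list. Mir3473f in Bcl2, an inhibitor of cell death, lay under a DMSO peak 176 kb wide, of which 68.0% was under EPZ, yet the nearest EPZ peak was 32.1 kb from it. At Mir5132 in Irak1 the DMSO fold was 3.32, with no EPZ peak.

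Genes for RNA processing hosted 9 members, 1 with an EPZ peak on it, while 6 of these 8 hosts had an EPZ peak. Mir1306 in Dgcr8 had a DMSO fold of 8.11, and the EPZ peak was 1.29 kb away; Dgcr8 is the partner of Drosha. Mir3064 in the RNA helicase gene Ddx5 had a DMSO fold of 9.5 and an EPZ peak 0.102 kb away. Ddx39b, an mRNA export helicase gene, hosted Mir6975 with an EPZ peak of 9.32-fold and Mir8094 without one, 3.51 kb from it, under 1 DMSO peak of 9.38-fold. Chromosome and cell cycle genes hosted 7 members, 4 with an EPZ peak, and 6 of 6 hosts had one. Of these members, Mir301 in Ska2 had an EPZ fold of 5.85 and a DMSO fold of 6.84. Translation genes hosted 4, 1 with an EPZ peak, and 4 of 4 hosts had one. The member was Mir5121 in Rpl13a, with an EPZ fold of 8.74 and a DMSO fold of 9.86. Chromatin and transcription factor genes hosted 8, 1 with an EPZ peak, and 4 of 8 hosts had one. The member was Mir7045 in Chd4, a nucleosome remodeller, with 4.82 in the EPZ list and 9.02 in the DMSO list.

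The remaining genes of highest value were in hosts of several kinds. In the EPZ list Mir6935 in Actg1, a cytoplasmic actin, reached 14.6, Mir1982 in Oaz1, an inhibitor of polyamine synthesis, reached 12.6, Mir677 in the ATP synthase gene Atp5b reached 10.7, and Mir706 in Wnk1 reached 10.6. In the DMSO list Mir6935 had 8.83, Mir1982 had 11.4, Mir677 had 8.76 and Mir706 had 9.95. Among genes with no EPZ peak on them, Mir6418 in Gnb2, a G protein subunit gene, had a DMSO fold of 11.6. Mir6943 in Grk6, a gene for a kinase of G protein-coupled receptors, had 10.5. Mir6395 in Saraf, a regulator of calcium entry, had 10.4, and Mir7115 in the arrestin gene Arrb2 had 9.91. The EPZ peak was 0.685 kb from Mir6418, 0.499 kb from Mir6943, 0.434 kb from Mir6395 and 1.4 kb from Mir7115.

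EPZ peaks that were not on the microRNA lay mostly upstream of it, by its own strand. Of 81 genes in coding hosts with a listed upstream start, an EPZ peak lay on 9 of 18 under 1 kb from it, 12 of 35 at 1 to 5 kb, 2 of 19 at 5 to 20 kb and 2 of 9 farther away. Of 57 genes with an EPZ peak elsewhere on their DMSO peak and a known strand, the nearest EPZ peak on that DMSO peak was upstream in 49 and downstream in 8. Counting each DMSO peak once, it was upstream in 37 of 43. These counts, and the cover of members' peaks below, follow the strand of the microRNA and include genes without a host. In 72 DMSO peaks with both an EPZ peak and a strand, EPZ covered more of the upstream than the downstream bases in 59 and less in 13, with medians of 57.0% upstream and 4.34% downstream. Summed over the bases of all 107 DMSO peaks with a strand, with or without an EPZ peak, the contrast was smaller, at 57.1% upstream and 39.5% downstream, or 53.2% and 39.8% without the wide peak over Mir3473f. Split at the peak's midpoint, the upstream side had more EPZ cover in 61 of 72 (84.7%). The same held for 93.3% of 2156 other DMSO peaks in 1 protein-coding gene, so the asymmetry is not particular to microRNA genes.

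**Figure D4:**
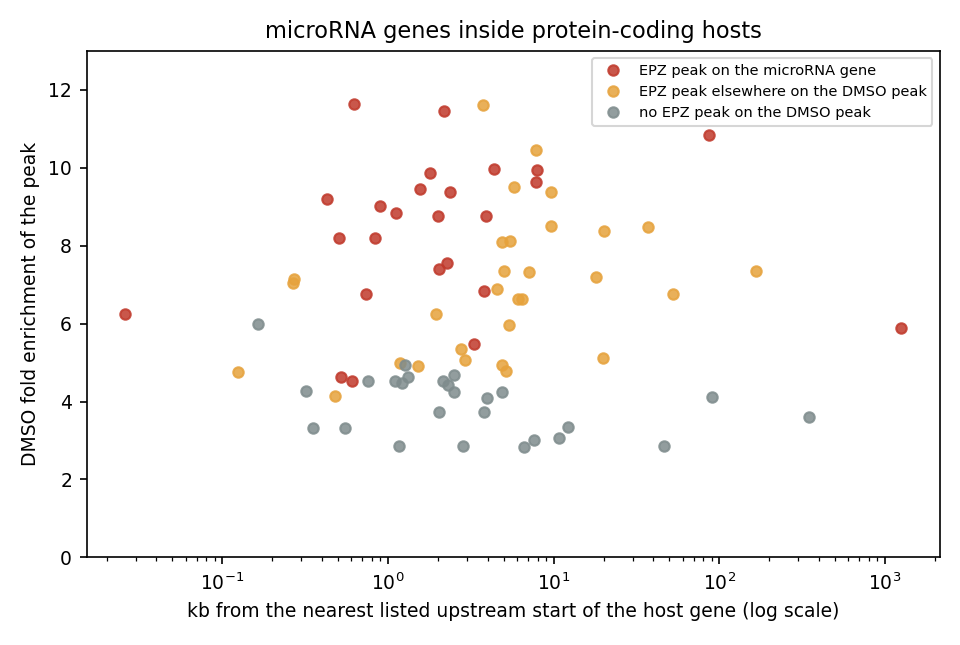
DMSO fold enrichment of the peak over each member in a protein-coding host against the distance in kb (log scale) from the nearest listed upstream start of the host; colour gives where an EPZ peak lay. Genes with an EPZ peak on them lay mostly within 5 kb of a start, and those with no EPZ peak on the DMSO peak were at or below 6.0-fold.

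**Figure D5:**
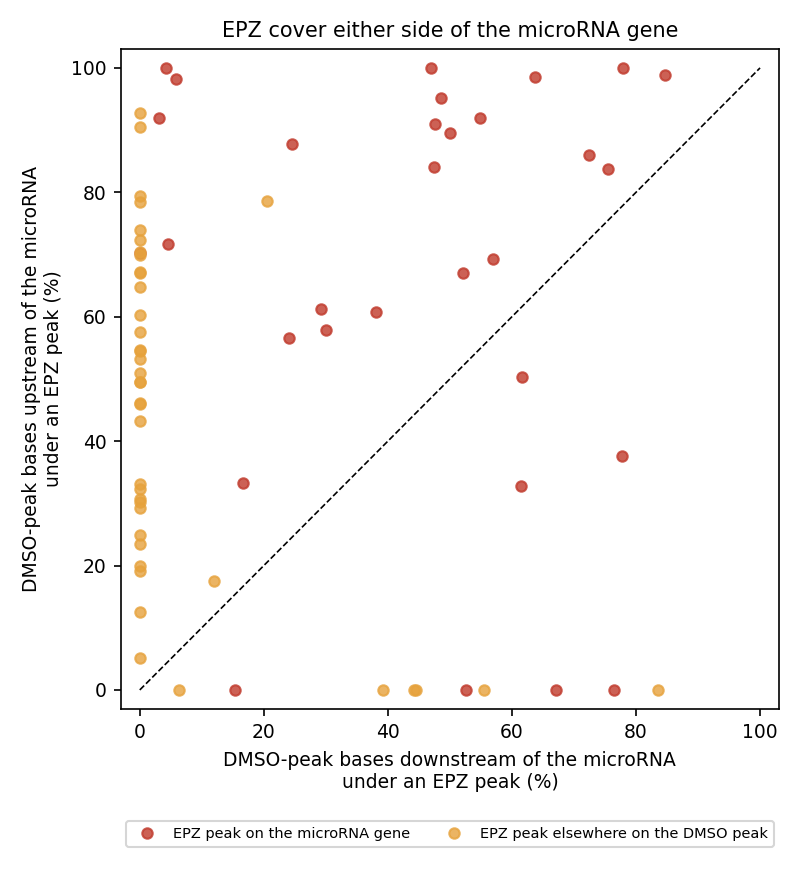
Share of the DMSO-peak bases upstream (vertical) and downstream (horizontal) of the microRNA that lay under an EPZ peak (%), 1 point per DMSO peak with an EPZ peak and a known strand; the dashed line marks equal shares. Of the 72 peaks, 59 have the higher share upstream.

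Members of a cluster differed in a few cases. Joining neighbours within 10 kb gave 14 clusters with 38 members, of which 4 had at least 3. EPZ peaks lay on every member of 4 clusters (Mir15b with Mir16-2, Mir150 with Mir5121, Mir142 with Mir142b, Mir6973a with Mir6974), on some members of 2 (the Mir17 cluster and Mir6975 with Mir8094) and on none of 8. Of those 4, all but Mir15b with Mir16-2 are pairs on opposite strands. In clusters, 10 of 38 members had an EPZ peak, and outside them 27 of 97 did. Of the 14 clusters, 2 are pairs that only share bases. Members with a symbol number below 1000 or named let-7 had an EPZ peak in 12 of 46 cases, and later-numbered ones in 25 of 89.

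Members shared 17 seeds among the matched mature strands, each on strands of at least 2 genes. The let-7 seed GAGGUAG came from 5 genes, 1 with an EPZ peak, the miR-17 seed AAAGUGC from 4, 1 with one, and the miR-15/16 seed AGCAGCA from 4, 2 with one. The miR-19 seed GUGCAAA came from 3, none with one, and AGUGCAA from Mir130b and Mir301, 1 with one. For Mir301b only the 5p strand was matched, so a seed on its 3p strand is not in these counts. Of 9 matched mature sequences found at more than 1 gene, 3 came only from members and 6 also from a gene with no DMSO peak. An example is miR-24-3p from Mir24-1. Some strands were not matched, among them miR-150-5p, so further shared seeds and copies can be missing.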

How the data were processed

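H3K79me2 ChIP-seq peaks were taken as deposited. The submitters' processing notes name Picard, BWA (0.7.17-r1188) and MACS2 (2.2.7.1), with builds mm10 (GRCm38) and sacCer3. Thresholds, the use of inputs and yeast reads, and how replicates were combined: not given in the sources used here. Yeast chromatin with HA-tagged H3 was added, per the labels' protocols. The deposited fold is the authors' ratio over background, the −log10 q is the authors' average over a peak, and the deposited score was not used further. Depth per sample is unknown.

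Members and gene lists were chosen with earlier results of these data known. Peaks and RefSeq genes (GRCm38) were intersected by at least 1 base with Python 3.11.15 and pandas 2.3.3 in scripts tested on simulated intervals. A host contained the whole microRNA interval; exons were not analysed here. Named genes were the members of 4 lists (109 genes), the 10 highest by DMSO fold, by EPZ fold and by DMSO fold without EPZ, members with an SGC peak, members in clusters of 3 or more, and genes nearest the edge of the rule; members named for their host were picked after values were seen. Shares have exact Clopper-Pearson 95% intervals (scipy 1.17.1). Alternatives changed the overlap, the q threshold (−log10 q of 5), the unit counted and the cluster distance. One gene that the naming rule selects is not reported here.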

Additional observations from a re-analysis of the deposited data

How the results depend on the processing

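Counting an EPZ peak anywhere on the DMSO peak raised the EPZ count to 95 from 37, and the SGC count to 3 from 0; the wider unit is built into these alternatives. Otherwise counts moved by under 1.5 times. Members numbered 130 with whole-gene cover, 96 at −log10 q of at least 5 and, as alternatives added after seeing the data, 132 with genes sharing bases counted once and 139 with other symbols. EPZ peaks lay on 32 members by whole-gene cover and on 32 at −log10 q of at least 5. With each cluster counted once beside the single genes, 33 of 111 units had an EPZ peak on a member (29.7%), and with each of the 112 DMSO peaks over members counted once the share was 29.5%. Members in a protein-coding host numbered 100 when 1 shared base was enough, and 106 when noncoding hosts were included, against 99. Clusters numbered 11 (3 kb) or 13 (50 kb) against 14. No paired analysis was possible because each treatment has 1 pooled list, and for the same reason leaving out a replicate was not run. Weak peaks that the unknown depth left uncalled limit every count.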
